A study of Mus musculus with 22 samples.

Results

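Epididymal epithelial cells were taken from the single-cell libraries of pooled mouse organs by the transcripts that these cells are known for. A barcode, which stands for a droplet, was a member when it had at least 200 detected genes, at most 25% mitochondrial UMIs (unique molecular identifiers, 1 for each captured transcript), and a UMI of Epcam, Krt8 or Krt18. It also needed at least 10 UMIs summed over Spink8, Gpx5, Spag11b, Defb20, Cst8, Cst11 and Cst12, at least 2 of these 7 genes detected, and no UMI of Ptprc, Pecam1 or Miox. This selected 1299 of the 179929 barcodes of the series, or of the 93055 barcodes in organ libraries that passed the gene and mitochondrial limits. Each member was then classed by whichever of the 7 genes had most UMIs in it. Members were selected on the measured UMIs of these genes. Because those values chose the members and the classes, differences between members and other cells, and between classes, are descriptions without a test.

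The organ libraries pooled kidney, liver, lung and stomach with epididymis or uterus of mice without tumours. All of these mice carried Prom1-CreERT2, a recombinase that tamoxifen activates in cells using the Prom1 promoter, and Rosa26ZSG, a fluorescent lineage tag, on a mixed background. The labels named the sodium leak channel gene Nalcn as wild type (wt), heterozygous (het) or null. Recombination is limited to cells with an active Prom1 promoter and their descendants, so the genotype of a library is not the genotype of each of its cells. Libraries wt 1 and wt 2 (571 days of age), wt 3 (608 days), het 1 and het 2 (551 days) and null 2 (552 days) were labelled male with an epididymis. Libraries wt 4 (611 days), wt 5 (654 days) and null 3 (611 days) were labelled female with a uterus. A further male library with an epididymis (unassigned 1, 610 days) and a female library with a uterus (unassigned 2, 647 days) had conflicting genotype labels and are given as values only.

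The epididymis is the coiled duct in which sperm mature between the testis and the vas deferens. Its wall is made mainly of principal cells, which secrete proteins into the lumen, beside clear and narrow cells that acidify it and basal cells. Principal cells differ along the duct, from the initial segment through caput and corpus to cauda, and each stretch secretes its own mix of lipocalins, beta-defensins, cystatins and protease inhibitors, much of it under androgen control.

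Library null 3 went against its label. It was labelled female with a uterus, yet it held 384 members. Of these, 137 (35.7%) had a UMI of a Y-linked gene and none of Xist, 46 (12.0%) had Xist alone and 28 had both. In the libraries labelled male, 31.2% (unassigned 1) to 69.8% (het 1) of members had a Y-linked UMI without Xist. At most 0.192% (null 2) had Xist alone. Among the 2726 Ptprc-positive barcodes (leukocytes) of null 3, 67 had a Y-linked UMI alone and 2134 (78.3%) had Xist alone. Of its other epithelial barcodes, 64.0% had Xist alone. The library labelled null 3 thus joined mostly female leukocytes to epididymal cells of which many were male. The share of its members with a Y-linked UMI alone lay within the range of the libraries labelled male. Xist alone was less frequent in these members than in the leukocytes, and whether those 46 members were female was not tested. The source of the epididymal cells was also not tested. Library wt 3 stood apart in another way, with 32 of its 34 members led by Spink8. Any pair of the 11 organ libraries shared 0.162% to 0.900% of the barcodes of the smaller one, and 1 barcode was a member in both libraries of a pair.

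The members were deep enough to be described one by one, with a median of 3816 UMIs, 1391 genes and 10.4% mitochondrial UMIs. The 7 chosen genes made up a median of 9.81% of a member's UMIs (interquartile range 3.93% to 15.6%), and up to 43.4%. At least 5 of the 7 genes were detected in 855 members (65.8%), and all 7 in 288. At the edge of the rule, the 8 members with exactly 10 marker UMIs had a median marker share of 0.286%, and the 2 barcodes with 9 UMIs that met every other condition had 0.895%. A group of 59 members lay below 1%. Summed over these 59, Scgb1a1, the main secretory product of lung club cells, reached 29718 CPM (UMIs of a gene among 1000000 UMIs), and Defb42 was detected in 44.1%. In the 897 members with a share of at least 5%, Scgb1a1 was at 362 CPM and Defb42 was detected in 97.3%. Of all members, 229 (17.6%) were among the barcodes with the highest Scrublet doublet scores, of which the share expected from the loading was marked (16.2% of all passing organ barcodes).

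Principal cell genes that the rule had not used were also measured. Adam7, a sperm-binding membrane protein of the epididymis, was at 2038 CPM over all members, against 6.47 CPM in other epithelial barcodes and 6.17 CPM in leukocytes. At least 2 of the 9 principal cell genes on the list were detected in 1169 members. For the other epididymal types, whose lists held 5, 4 and 4 genes, the counts were 78 members for clear and narrow cells, 40 for basal cells and 12 for ciliated cells. Of the lists for other organs and blood, those of gastric surface cells (165 members), erythroid cells (153), hepatocytes (116) and kidney proximal tubule (79) had at least 2 genes detected more often than the clear and narrow cell list, and those of club cells, endothelium, fibroblasts, alveolar type 2 cells, other kidney tubule and smooth muscle in 4 to 40 members. The leukocyte list had 216 members, the most of these lists. Of its 2185 CPM in members 2061 CPM were Cd52, which epididymal cells also express, but each of the 216 also had a UMI of another gene on the list. Male germ cell genes summed to 2.06 CPM with Tnp1 at 0, seminal vesicle genes also to 2.06 CPM, and uterine genes to 52.1 CPM, against 64.8 CPM in other epithelial barcodes. Most of the uterine sum was Ltf, lactoferrin, which other secretory epithelia also make (50.9 CPM, a UMI in 7.62% of members), while Prss28 and Prss29 were at 0. Principal cells were thus the type whose genes were detected most often, and the label of epididymal epithelium was kept.

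The promoters of 3 members of the secretory program are shown here because they carry the contrast described further on. Gpx5 had the highest level of the 7 chosen genes over all members, though not in wt 2, wt 3 or unassigned 1, while Defb20 and Defb23 are neighbours that were high in different members. The RefSeq promoter table used here matched 4 of the 7 chosen genes (Gpx5, Defb20, Cst8 and Cst12) and not Spink8, Spag11b and Cst11. Its promoters run from 250 bases before to 50 after the start, in build GRCm38.p6. The sequences run 5′ to 3′ on the gene's strand from chr13:21292637-21292936 (minus), chr2:152476813-152477112 (plus) and chr2:152464571-152464870 (minus). Capitals mark AGAACA or its reverse complement TGTTCT, a 6-base half-site of steroid hormone receptors.
Gpx5 promoter: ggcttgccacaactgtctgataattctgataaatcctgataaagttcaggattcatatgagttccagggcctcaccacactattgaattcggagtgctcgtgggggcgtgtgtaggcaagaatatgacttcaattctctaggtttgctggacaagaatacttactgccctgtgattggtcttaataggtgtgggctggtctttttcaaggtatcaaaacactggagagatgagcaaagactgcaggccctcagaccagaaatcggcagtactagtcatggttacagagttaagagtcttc
Defb20 promoter: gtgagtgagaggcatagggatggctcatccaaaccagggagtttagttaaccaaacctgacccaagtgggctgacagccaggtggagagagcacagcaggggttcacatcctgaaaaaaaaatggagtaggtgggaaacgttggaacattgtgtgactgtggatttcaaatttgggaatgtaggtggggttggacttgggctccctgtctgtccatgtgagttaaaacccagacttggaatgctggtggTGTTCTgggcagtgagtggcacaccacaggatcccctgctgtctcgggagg
Defb23 promoter: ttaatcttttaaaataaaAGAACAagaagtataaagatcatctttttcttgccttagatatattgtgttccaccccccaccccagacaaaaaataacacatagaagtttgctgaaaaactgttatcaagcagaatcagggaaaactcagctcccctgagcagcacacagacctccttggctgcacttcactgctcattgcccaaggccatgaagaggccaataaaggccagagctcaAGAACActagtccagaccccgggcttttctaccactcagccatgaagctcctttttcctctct
The half-site occurred 0 times in the Gpx5 promoter, 1 time in that of Defb20 and 2 times in that of Defb23. It was present in 6233 of 32851 promoters of this length (19.0%). Among the 10 genes that most marked the Spink8-led members, 5 of the 9 with a promoter held it, as did 5 of the 9 with a promoter among the 10 genes that most marked the Gpx5-led members. The letters alone say nothing of binding.

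The chosen genes were among the most abundant transcripts of these cells. UMIs from the 3′ end count transcripts without regard to their length, so levels can be set side by side. Over all members, Gpx5, a secreted glutathione peroxidase that protects sperm from oxidation, was at 35965 CPM. Spag11b, a beta-defensin-like secreted protein, was at 25853 CPM, Defb20, a beta-defensin, at 23442 CPM, and Spink8, a Kazal-type protease inhibitor, at 15067 CPM. The cystatin family members Cst11 (6451 CPM), Cst12 (5054 CPM) and Cst8 (2591 CPM) were lower. In leukocytes of the same libraries the 7 genes lay between 5.41 and 54.5 CPM. A UMI was found in 1.22% (Cst8) to 11.6% (Gpx5) of leukocytes, at median depths of 1069 to 3630 UMIs, against 40.3% and 85.3% of members at a median of 3816 UMIs. In the 8 libraries with at least 20 members, each of the 7 genes had UMIs in leukocytes except Cst11 in wt 3, far below the members' level. Spag11b was also at 41.2 CPM in barcodes with macrophage genes of wt 4, where no epididymis was pooled. The source of the UMIs in leukocytes was not tested.

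Levels of the chosen genes differed widely between libraries. Gpx5 in members was at 34864, 13896 and 568 CPM in wt 1, wt 2 and wt 3, at 21788 and 54730 CPM in het 1 and het 2, at 44303 and 36842 CPM in null 2 and null 3, and at 17999 CPM in unassigned 1. Only wt 3 was low, by more than an order of magnitude. Spink8 was at 10014, 18979 and 30966 CPM in wt, 20207 and 19739 CPM in het, 15270 and 7285 CPM in null, and 15189 CPM in unassigned 1, and here wt 3 was the highest. Spag11b and Defb20 followed Gpx5 in that wt 3 was lowest (941 and 1693 CPM), with the other libraries between 14462 and 32499 CPM for Spag11b and between 13680 and 30993 CPM for Defb20. Cst8 split the libraries further. It was at 2025, 42.1 and 3.40 CPM in wt, 70.7 and 2243 CPM in het, 549 and 6194 CPM in null, and 3057 CPM in unassigned 1. The libraries of each genotype were thus spread over more than an order of magnitude. Of the marker UMIs in leukocytes, Spink8 made up 92.1% in wt 3, 6.03% in null 3 and 27.1% in wt 1, against 89.4%, 5.58% and 11.8% in the members of these libraries. Over the 8 libraries the leukocyte and member shares differed by 0.445 to 15.3 percentage points, with a median of 2.73. By contrast Defb42, a beta-defensin that the rule had not used, stayed between 2034 CPM (wt 1) and 2794 CPM (null 3).

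**Figure D1:**
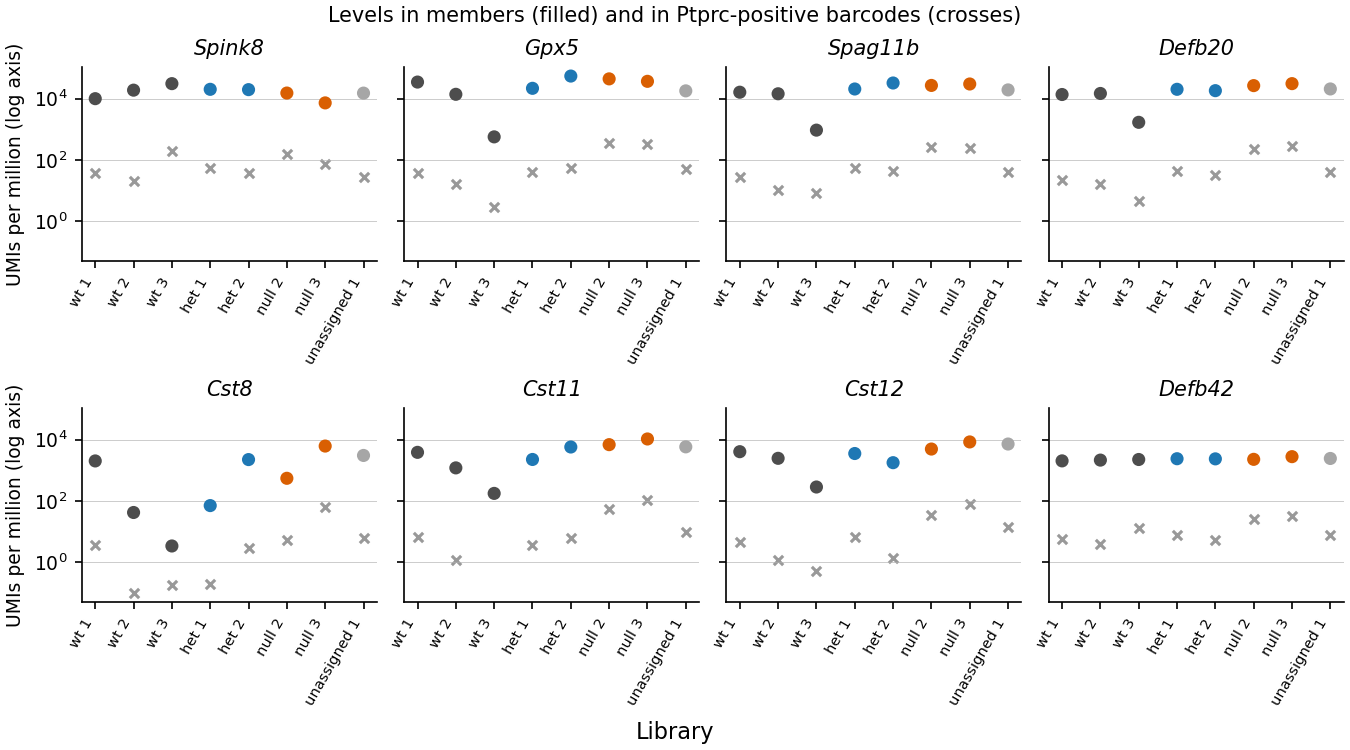
Each panel plots 1 gene, with libraries on the x axis and CPM on a logarithmic y axis; filled points are members (dark grey wt, blue het, orange null, light grey unassigned) and crosses are Ptprc-positive barcodes, where a missing cross is a value of 0. Defb42 stays between 2034 and 2794 CPM in members, while Cst8 runs from 3.40 CPM in wt 3 to 6194 CPM in null 3.

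Split by the leading gene, 483 members (37.2%) were led by Gpx5, 400 (30.8%) by Spink8, 208 (16.0%) by Spag11b, 206 (15.9%) by Defb20 and 2 by Cst12, and none by Cst8 or Cst11. Members led by Gpx5, Spag11b or Defb20 resembled each other. Their median marker shares were 14.02%, 11.03% and 12.4%, a median of 6 of the 7 genes was detected in each, and the leading gene held 40.1%, 35.7% and 34.8% of marker UMIs. In Gpx5-led members the second gene was Spag11b in 50.9% and Defb20 in 38.9%. Members led by Spink8 were different: the marker share was 3.22%, a median of 3 genes was detected, and Spink8 held 95.8% of the marker UMIs. This class was less even in het 1 and null 2, where 45 and 129 members were led by Spink8. Of these, 19 and 69 had a Spink8 share of marker UMIs above 90%. Spink8 itself was at 31656 CPM in Spink8-led members and at 7512, 8580 and 5775 CPM in those led by Gpx5, Spag11b and Defb20. Gpx5 was at 2520 CPM in Spink8-led members against 64721 CPM in its own class, and Cst11 at 83.6 CPM against 9063 CPM in the Gpx5-led. Each member was thinned to 1000 UMIs, which left out 73 shallower ones, and 3 of the remaining 1226 then had no marker UMI. Of the others, 88.0% kept their leading gene, from 76.2% of the Defb20-led to 96.0% of the Spink8-led. A Cst11 UMI was then found in 7.20% of Spink8-led and 78.9% of Gpx5-led members, against 16.2% and 88.4% before thinning.

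The Spink8 share of marker UMIs fell mostly at the ends of its scale. It was above 90% in 261 members (20.1%), below 10% in 653 (50.3%) and between in 385 (29.6%). Libraries differed in how many lay between: 3 of 93 members (3.23%) in unassigned 1 and 50 of 384 (13.0%) in null 3, but 204 of 522 (39.1%) in null 2 and 69 of 106 (65.1%) in het 1. In wt 1, wt 2 and het 2 the share between was 30.4% to 39.3%, and in wt 3 it was 17.6%. In null 2 and het 1 the members between lay mostly at the lower end. In null 2 the bins of 10 points from 10% to 40% held 79, 55 and 34 members, and those from 40% to 90% held 10, 9, 4, 3 and 9. In het 1 these bins held 22, 25 and 4, and 6, 4, 2, 3 and 3. The last bin, from 90%, held 70 in null 2 and 19 in het 1. In both libraries each bin between 40% and 90% thus held fewer members than either end bin. The classes were nearer to separate groups in unassigned 1 and null 3.

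**Figure D2:**
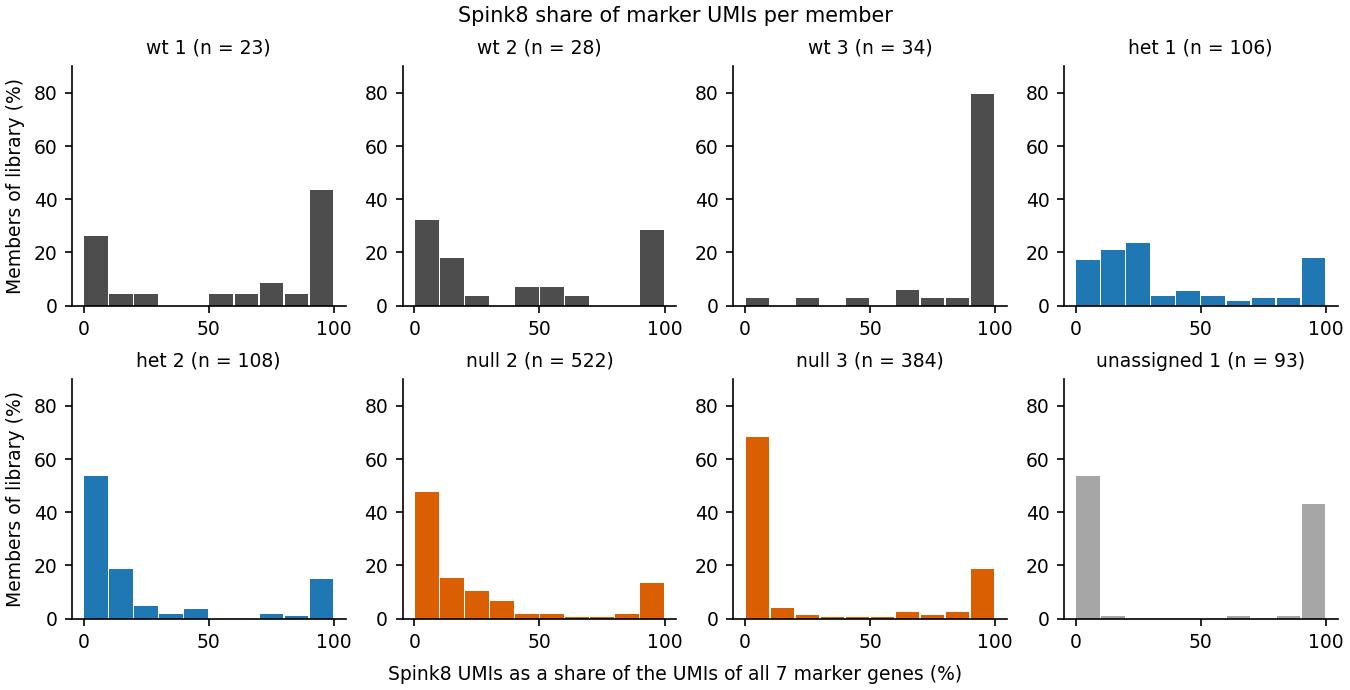
Each panel shows 1 library, with the Spink8 share of the UMIs of all 7 marker genes per member on the x axis (bins of 10 percentage points) and the percentage of the library's members on the y axis. In wt 3, 79.4% of members lie above 90%, in null 3 68.2% lie below 10%, and in het 1 65.1% lie between.

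Spink8-led members also differed in genes that the rule had not used. The 10 genes with the largest ratios to other members, among those higher in each of the 5 libraries with at least 20 Spink8-led and 20 other members, were Spint4, Wfdc13, Akr1b7, Spint5, Defb23, Defb43, Defb38, Serpina16, Cwh43 and Nrgn. Wfdc13, a whey acidic protein-type protease inhibitor, was at 1551 CPM in them against 3.72 CPM in other members, Spint4, a Kunitz-type inhibitor, at 1262 against 1.95 CPM, and the aldo-keto reductase Akr1b7 at 218 against 0.531 CPM. Akr1b7 rested on het 2, with 419 of its 572 UMIs in Spink8-led members, and was at 67.5 CPM in those of the other libraries. Wfdc13 was found in 55.8% of Spink8-led members and in each library, from 318 CPM (het 2) to 3037 CPM (null 3). Spint4 was found in 14.8% and was much less even, with 4578 CPM in the Spink8-led members of null 3, 1514 CPM in unassigned 1, 1049 CPM in wt 1, 38.8 to 329 CPM in wt 3, het 1, het 2 and null 2, and 0 in wt 2, and without null 3 it was at 342 CPM. Crisp1, a cysteine-rich secretory protein that coats sperm, was at 5215 CPM in Spink8-led members and at 428 CPM in the Gpx5-led. Cd52, a glycoprotein that distal epididymal cells pass to sperm and that leukocytes also express, reached 6283 CPM in Spink8-led members against 1164 CPM in leukocytes, and lay between 78.7 and 127 CPM in the other main classes. Its level in Spink8-led members ran from 263 CPM (het 1) and 1402 CPM (null 2) to 18031 CPM (unassigned 1), so that het 1 and null 2 were again low. Some Spink8-led members, which were 30.8% of all members, carried genes of other cell types. They were 33 of the 78 members with at least 2 clear and narrow cell genes. For basal cells (10 of 40) and ciliated cells (3 of 12) they were below their share of all members. Spink8-led members were also 30 of the 59 members with a marker share below 1%.

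The Gpx5-, Spag11b- and Defb20-led members differed from each other by degree. The gene that most marked the Gpx5-led was Lypd8 at 560 CPM against 119 CPM in other members. The leading genes of this class also held Defb45 (160 against 40.3 CPM) and the lipocalin Lcn6 (1049 against 313 CPM). Gpx6 (134 against 48.9 CPM) and Defb47 (3629 against 1357 CPM) were among them too. These pooled values mix libraries that differ in level and in class shares. Without het 2, Lypd8 was at 256 against 66.7 CPM, and within libraries it was at 1408 against 500.1 CPM in het 2, 487 against 56.4 CPM in null 3, 130.2 against 26.9 CPM in het 1 and 79.5 against 42.0 CPM in null 2. Without null 3 the contrasts of Lcn6 (971 against 99.1 CPM) and Defb47 (3433 against 344 CPM) were larger, and within null 3 Defb47 was at 4137 against 3678 CPM. In the Defb20-led, Defb48 was at 11264 CPM against 3163 CPM and Ly6g5c at 1857 against 574 CPM. Null 3 held most of the Defb48 UMIs, and without it the levels were 4206 against 1032 CPM for Defb48 and 776 against 253 CPM for Ly6g5c, which in null 2 was at 192 against 162 CPM. Within libraries Defb48 was at 17772 against 9270 CPM in null 3, 19296 against 7171 CPM in unassigned 1 and 128 against 51.9 CPM in null 2, higher in the Defb20-led in each of the 3. In the Spag11b-led the largest ratio to other members was 2.04, that of Gm26917. This ranking took genes outside the rule with at least 50 CPM in the class and higher in each of the 4 libraries compared.

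Beta-defensins were divided between the classes gene by gene. Of 44 beta-defensin and Spag11 genes measured, 27 reached 50 CPM in members, and 25 of these were not used by the rule. Of the 25, 18 were higher in Spink8-led members and 7 in the others, and the direction was the same in each of the 5 libraries for 11 and 6 of them. Over all 2282 genes at 50 CPM other than the 7 marker genes, 1625 were higher in the Spink8-led and 657 in the others, so the defensins' share in either direction over all libraries was close to that of genes in general. The direction held in each of the 5 libraries for 18.4% (higher) and 9.16% (lower) of all these genes, below the defensins' 11 and 6 of 25. Adjoining genes differed in direction. Defb23 (chr2:152459055-152464620, minus strand) was at 1226 CPM in Spink8-led and 3.72 CPM in other members. Defb20 (chr2:152477063-152479934, plus strand) begins 12443 bases from its end and was at 3943 CPM against 32487 CPM. Next to it, Defb22 (927 against 1.24 CPM) and Defb28 (3928 against 37.0 CPM) followed Defb23, whereas Defb25 in the same cluster was at 12.2 against 3310 CPM. On chromosome 14, Defb48 and Defb47 were at 20.2 and 15.6 CPM in Spink8-led members against 6188 and 3357 CPM, while the adjoining Defb43 was at 288 against 1.59 CPM. On chromosome 8, 11 of 12 genes were higher in the Spink8-led over all libraries, but Defb12 only at 150.4 against 150.1 CPM and lower in 4 of the 5 libraries, and Spag11b, which the rule used, was lower. Spag11b and Spag11a are related in sequence and Defb30 overlaps Defb42 on the opposite strand, so reads of these pairs may be split or joined by the counting. Library null 3 carried many of these values. Without it Defb23 was at 607 against 2.37 CPM, Defb22 at 571 against 0.527 CPM and Defb28 at 3330 against 42.7 CPM in Spink8-led against other members. Without null 3, Defb25 was at 6.83 against 1754 CPM, Defb48 at 10.7 against 2023 CPM and Defb47 at 5.36 against 2541 CPM. In het 1 Defb22 (1.71 against 1.25 CPM) and Defb48 (3.41 against 5.00 CPM) were near 0 in both, and in het 2 Defb22 had no UMI in either. Coordinates are those of GENCODE vM21 on the mm10 build.

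**Figure D3:**
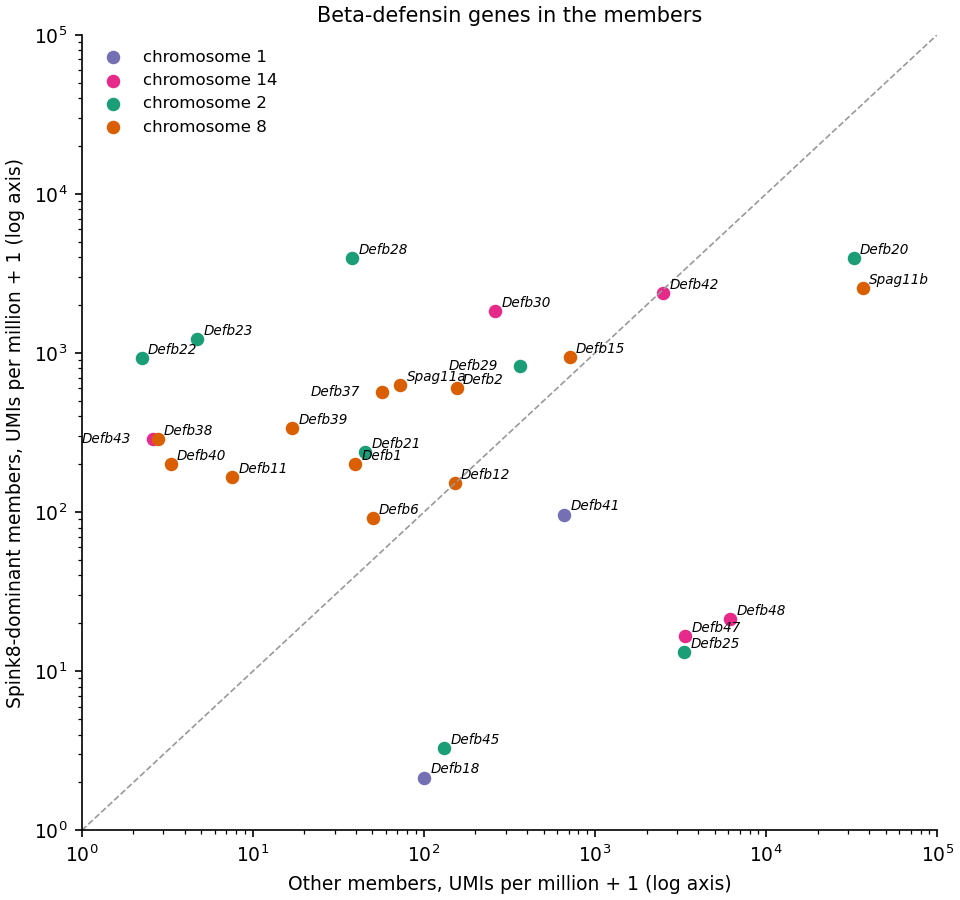
Each point is 1 of the 27 beta-defensin or Spag11 genes at 50 CPM or more in members, coloured by chromosome, with CPM plus 1 in members not led by Spink8 on the x axis and in Spink8-led members on the y axis, both logarithmic; the dashed line marks equal levels. Defb22 and Defb23 lie at the upper left, Defb48, Defb47 and Defb25 at the lower right, and Defb42 on the line at 2499 and 2390 CPM.

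Other secreted families were also split. Lipocalins bind small hydrophobic molecules such as retinoids, and 5 of the 6 epididymal ones were lower in Spink8-led than in other members, 4 of them in each of the 5 libraries, as were 9.16% of all genes. Lcn8 was at 45.0 CPM in Spink8-led and 30184 CPM in Defb20-led members, and Lcn9 at 8.02 and 8252 CPM. The exception was Lcn5, at 9860 CPM in the Spink8-led, 5010 CPM in the Gpx5-led and 893 CPM in the Defb20-led. The pooled level rested largely on null 3, where Lcn5 was at 28342 CPM in the Spink8-led and 4652 CPM in the others. The direction was the same in unassigned 1 (8603 and 1242 CPM) and null 2 (1686 and 715 CPM). Without null 3 the levels were 4737 and 3672 CPM, in het 1 they were 5385 and 5344 CPM, and in het 2 the direction was opposite (2364 and 6042 CPM). Of the ribonuclease A-like genes, Rnase10 was at 2.29 CPM in the Spink8-led and 1469 CPM in the Defb20-led, and Rnase9 at 1184 and 8.24 CPM. Without null 3, Lcn8, Lcn9 and Rnase10 were at 6999, 2082 and 478 CPM in members not led by Spink8. The level of Rnase9 rested largely on null 3 (3610 CPM in the Spink8-led against 218 CPM in the others), and without null 3 was 512 against 149 CPM. Rnase9 was also higher in the Spink8-led in unassigned 1 (2343 against 115 CPM), het 1 (116 against 38.8 CPM) and null 2 (26.7 against 5.31 CPM). In het 2 it was lower in the Spink8-led than in the others (227 against 399 CPM). Adam7 (831 against 3016 CPM in the Gpx5-led) and Adam28 (1.53 against 633 CPM) were both lower in Spink8-led members. Among glutathione peroxidases outside the rule, Gpx3 was at 1576 CPM in the Spink8-led and 378 CPM in the Gpx5-led, and Gpx6 at 3.05 and 134 CPM. Within libraries Gpx3 in Spink8-led against other members ran from 507 against 386 CPM (het 1) to 3083 against 84.6 CPM (unassigned 1). In null 2 it was 1067 against 591 CPM. Leukocytes and other epithelial barcodes also held Gpx3, as given below. Clu, the sperm-coating chaperone clusterin, was abundant in all of them, at 10189, 10030 and 6649 CPM in the Spink8-, Gpx5- and Defb20-led. All 8 junction and keratin genes at 50 CPM, of which Epcam, Krt8 and Krt18 had been used to admit members, and all 9 dissociation stress genes were higher in Spink8-led members, 4 and 3 of them in each of the 5 libraries. Over all 2282 genes, 71.2% were higher in the Spink8-led, 18.4% in each of the 5 libraries.

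Among members not led by Spink8, a set of genes known from the initial segment differed widely between libraries of the same genotype. These genes were chosen after their values had been seen. Lcn8 in such members was at 15230, 86.3 and 95.6 CPM in wt 1, wt 2 and wt 3, 30.002 and 8866 CPM in het 1 and het 2, 1744 and 40349 CPM in null 2 and null 3, and 41715 CPM in unassigned 1. Each genotype had at least 1 library far below another of its own. Lcn9 ran from 0 in wt 2 and wt 3 and 5.00 CPM in het 1 to 11871 CPM in null 3, and Defb48 from 0 in wt 3 to 17061 CPM in unassigned 1. Rnase10 and Ovch2 were likewise highest in unassigned 1, at 3130 and 870 CPM, and at most 5.00 and 18.8 CPM in wt 2, wt 3 and het 1. Gpx5 in the same members ran from 12715 CPM (wt 3) to 71510 CPM (het 2) and Adam7 from 1001 CPM (wt 2) to 3473 CPM (wt 1). Members not led by Spink8 numbered 8, 16 and 2 in wt 1, wt 2 and wt 3, 61 and 85 in het, 393 and 283 in null and 51 in unassigned 1. A different stretch of duct in each pool and a different state of the same cells cannot be told apart here.

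**Figure D4:**
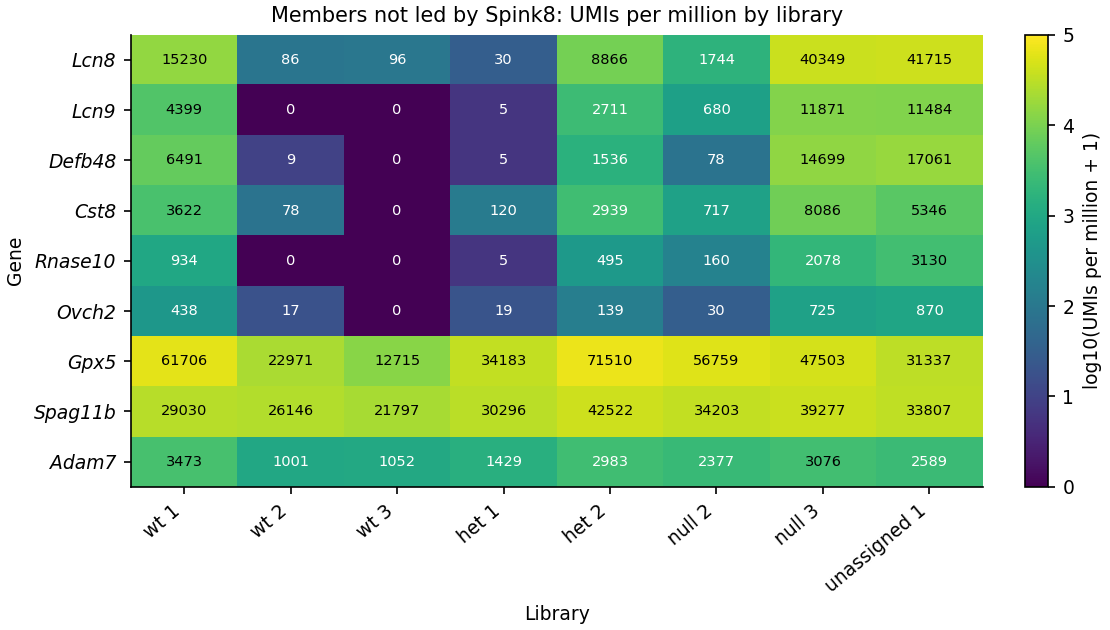
The grid shows genes as rows and libraries as columns for members not led by Spink8; the numbers are CPM and the colour is log10(CPM + 1). Lcn8 lies between 8866 and 41715 CPM in wt 1, het 2, null 3 and unassigned 1 and between 30.002 and 95.6 CPM in wt 2, wt 3 and het 1, while Gpx5 and Adam7 are present in every library.

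The next question was whether members were found where the labels placed an epididymis. Members per 100 passing barcodes were 0.387, 0.153 and 0.607 in wt 1, wt 2 and wt 3, 1.41 and 2.67 in het 1 and het 2, and 5.99 in null 2. In the libraries labelled with a uterus they were 0 of 13067 barcodes in wt 4, which allows a share of up to 0.0230%, 0 of 287 in wt 5, which allows up to 1.05%, and 4.10 in null 3. The means were 1.87% ± 2.22 (SD, n = 6) with an epididymis label and 1.37% ± 2.37 (SD, n = 3) with a uterus label, and did not differ beyond their spread (exact two-sided permutation test over 84 splits, p = 0.798, smallest possible 0.0119). Without null 3 the difference was 1.87 percentage points and the groups did not overlap (p = 0.286 by the same exact test over 28 splits, smallest possible 0.0357). Unassigned 1 had 2.15 and unassigned 2 had 0.00626 members per 100.

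By genotype, the shares in libraries labelled with an epididymis did not overlap under the rule as given. The mean share was 2.04% ± 0.887 (SD, n = 2) for the het libraries, compared with 0.383% ± 0.227 (SD, n = 3) for wt, so that het lay 1.66 percentage points higher (exact two-sided permutation test, p = 0.1, the smallest that 10 splits allow). With null 2 added, het and null together had 3.36% ± 2.37 (SD, n = 3), a difference of 2.98 points (exact permutation test, p = 0.1, again the smallest possible). Neither design could reach 0.05. The condition that 2 of the 7 genes be detected bore on this result. It alone kept out 198 barcodes, each with Spink8 as its sole marker gene and 78 of them in wt 3. Without it, an alternative chosen after seeing the data, wt 1, wt 2 and wt 3 stood at 0.438%, 0.186% and 2.00%, het 1 and het 2 at 1.56% and 3.04%, and null 2 at 6.53%, so that wt 3 lay above het 1 and the groups overlapped (p = 0.3 for het and 0.2 for het and null against wt, by the same exact test). Over all organ libraries other conditions alone kept out more barcodes: a Miox UMI 509, over 25% mitochondrial UMIs 339 and no epithelial UMI 230. Members held 9.37%, 19.3% and 15.9% of all marker UMIs in wt 1, wt 2 and wt 3. In het 1, het 2 and null 2 they held 32.7%, 66.8% and 54.4%. The part of these exclusions in the difference was not tested. The het and null libraries compared were 551 to 552 days old and the wt ones 571 to 608 days, so age and genotype cannot be told apart. The labels name no animals, so p-values measure the spread between libraries only. In pooled organs, the amount of epididymis put into the pool cannot be told apart from the number of epithelial cells per epididymis.

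**Figure D5:**
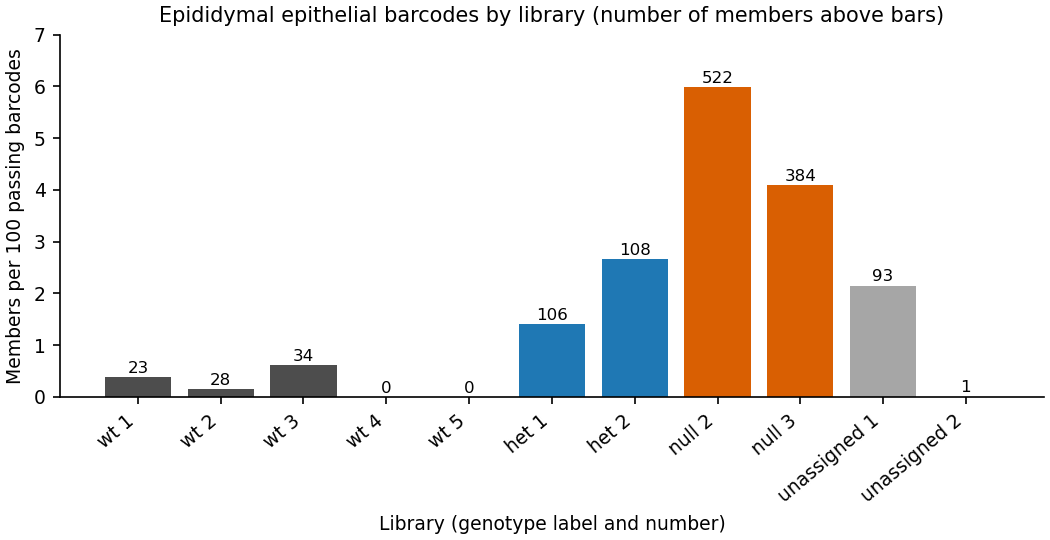
Bars give members per 100 passing barcodes (y axis, linear from 0) for each organ library (x axis; dark grey wt, blue het, orange null, light grey unassigned), with the number of members above each bar. Bars of wt libraries stay at or below 0.607, those of het and null libraries lie between 1.41 and 5.99, and null 3 stands at 4.10 in spite of its uterus label.

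The makeup of the members by class is given as a description, because the 7 genes that define the classes also chose the members. Spink8-led members were 65.2%, 42.9% and 94.1% of members in wt 1, wt 2 and wt 3, 42.5% and 21.3% in het 1 and het 2, 24.7% in null 2 and 26.3% in null 3. The lowest wt library thus lay next to the highest het one. Among libraries labelled with an epididymis the mean was 29.5% ± 11.4 (SD, n = 3) in het and null and 67.4% ± 25.7 (SD, n = 3) in wt, a difference of -37.9 percentage points, or -24.6 points without wt 3. At 20 marker UMIs the groups overlapped, and without the 2-gene condition wt 1, wt 2 and wt 3 stood at 69.2%, 52.9% and 98.2%, het 1 and het 2 at 47.9% and 30.9%, and null 2 at 30.9%. The wt values rest on 23 to 34 members a library. For the shares of Gpx5-, Spag11b- and Defb20-led members the groups overlapped, with means in het and null above those in wt by 24.2, 10.0 and 3.40 points.

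Genes were compared between genotypes on counts summed over the members of each of the 7 libraries with a genotype and at least 20 members. Null 3 was among them, and since its members went against its label, their Nalcn genotype is not known from that label. Null 2 was thus the sole null library whose label named an epididymis. Of 10093 tested genes outside the rule, edgeR's quasi-likelihood test called 0 (0%) in null against wt, het against wt and null against het at an adjusted p of 0.05. Unadjusted p was under 0.05 for 617, 625 and 334 genes, and DESeq2 called 7 (0.0694%), 19 (0.188%) and 2 (0.0198%). By edgeR no gene of a secreted family was called. DESeq2 called 5 genes of the secreted families in het against wt, namely Defb22, Defb28, Defb11, Gpx3 and Spink1 (log2 changes of -8.61, -2.07, -2.30, -1.78 and -3.01), and Defb22 in null against het (log2 change 8.85, adjusted p = 0.0011 by DESeq2). Defb22 was at 217, 393 and 269 CPM in wt, 1.44 and 0 CPM in het and 8.68 and 521 CPM in null, so that het lay below both other groups and null was split. Gpx3, a secreted glutathione peroxidase, was at 1868, 1361 and 1625 CPM in wt, 437 and 447 CPM in het and 704 and 863 CPM in null, and no het or null library reached the lowest of wt, as for 12.9% (het) and 13.9% (null) of all tested genes (adjusted p = 1.9e-04 by DESeq2 and 0.74 by edgeR in het against wt). Leukocytes of the same libraries held Gpx3 at 1398, 1830 and 697 CPM in wt, 418 and 651 CPM in het and 1125 and 1306 CPM in null, and other epithelial barcodes at 1063 to 5874 CPM. Het was thus lowest in leukocytes too, and the part of RNA from other cells in the difference was not tested. In null against wt the 30 tested beta-defensin and Spag11 genes outside the rule had a median log2 change of -0.29 with 12 above 0, against 0.03 over all genes. In het against wt their median was -1.55 with 4 above 0, against -0.01 over all genes. Lipocalins had a median of 1.80 in null against wt, with 4 of 6 above 0, and of 0.16 in het against wt, also with 4 of 6. The het value ran from -3.50 (without het 2) to 4.35 (without wt 1). Each of the 9 dissociation stress genes lay above 0 in both null and het against wt, with medians of 0.41 and 0.65. These list values depended on single libraries. Without null 3, whose epididymal cells went against its label, the lipocalins in null against wt had a median of -0.85 with 1 of 6 above 0. The beta-defensins in null against wt then had a median of -1.65 with 4 of 29 above 0, and Lcn8 was at 30916 CPM in null 3 but 1331 CPM in null 2. In null against wt, the beta-defensins had 18 of 29 above 0 and the stress genes 3 of 9 without null 2. Without wt 1 the beta-defensins in null against wt had 20 of 30 above 0 and the lipocalins a median of 5.44. Without het 1 the stress genes in het against wt had 5 of 9. The class shares given above differed between libraries, and their part in these values was not tested. Among Spink8-led members alone, a restriction chosen after seeing the data, edgeR again called 0 genes in each comparison, with unadjusted p under 0.05 for 130, 170 and 163 of 5436.

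Single genes show the spread behind these results. Crisp1 in members was at 1960, 4068 and 6743 CPM in wt, 880 and 1827 CPM in het and 978 and 1617 CPM in null, so no library of het or null reached the lowest of wt, as for 12.9% and 13.9% of all tested genes. Its log2 change in null against wt was -1.36 (SE 0.55) with an adjusted p of 0.81 by edgeR. Adam7 was at 2631, 823 and 574 CPM in wt, 1106 and 2336 CPM in het and 1915 and 2722 CPM in null, and the groups overlapped (log2 change 1.04, SE 0.67, adjusted p = 0.86 by edgeR). After values had been seen, Bglap3, a gene related to osteocalcin, and Rnf186, a ubiquitin ligase of epithelia, were singled out. Bglap3 was at 13.9, 23.4 and 6.80 CPM in wt, 80.8 and 112 CPM in het and 116 and 83.3 CPM in null. Every het and null library lay above every wt one, as did 8.04% (het) and 4.6% (null) of all tested genes, and the log2 change in null against wt was 3.07 (SE 0.45, adjusted p = 0.41 by edgeR and 0.00349 by DESeq2). Rnf186 was at 18.5, 18.7 and 30.6 CPM in wt, 81.5 and 115 CPM in het and 82.7 and 69.7 CPM in null, with a log2 change in het against wt of 2.22 (SE 0.34, adjusted p = 0.36 by edgeR and 0.0117 by DESeq2).

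The targeted gene could not be checked in these cells. Nalcn had no UMI in any member, which allows up to 0.363 CPM. Prom1, whose promoter drives the recombinase, had 304 UMIs in 144 members. They lay in het 2 (160 UMIs), null 3 (62), wt 3 (44), wt 2 (18), wt 1 (15), null 2 (3) and unassigned 1 (2), with none in het 1. In Spink8-led against other members Prom1 was at 145 against 96.3 CPM in het 2, 73.9 against 10.8 CPM in null 3 and 62.9 against 74.4 CPM in wt 1, and in the other libraries with UMIs it was higher in the Spink8-led. These levels rest on the few UMIs given above.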

How the data were processed

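Single-cell RNA was profiled from pooled mouse organs by droplet capture with 3′ chemistry. According to the matrix headers, the authors aligned reads to mm10 with Cell Ranger 3.0.2 (2.1.1 in the submitters' processing notes) and deposited filtered matrices of whole-number UMI counts, without normalization or removal of doublets. The hashtag counts that assign barcodes to organs were not used here. Organ libraries held 8571019 to 139793927 UMIs. The members and gene lists were chosen with earlier results of these data known. Members were found by the rule given above, summed per library and given as CPM. Summed counts were tested with edgeR 4.0.16 (quasi-likelihood, TMM, filterByExpr, genotype alone, Benjamini-Hochberg at 0.05) in 7 libraries with at least 20 members, and with DESeq2 1.42.0 as an alternative. The test was checked on simulated counts. Member shares were compared by exact permutation over libraries. The same test had been set for class shares, which are given as a description because the genes of the rule define the classes. Replicate pairs differed by 6.90 to 30.9 in chi-square per degree of freedom, so each library counted as 1 sample. Same-numbered libraries did not deviate together (correlations -0.380 to 0.0465), so numbers did not pair them. A limit for a count of 0 is 3 counts, and it covers counting error only. Other epithelial barcodes were passing ones with Epcam, Krt8 or Krt18, under 10 UMIs of the 7 genes and no Ptprc or Pecam1, and leukocytes were passing ones with Ptprc and without these epithelial genes. Named genes were those of the rule, the most abundant members of fixed lists, up to 10 leading genes a class, and others said to be chosen after their values were seen. Alternatives were scaling, test, filter, doublets, mitochondrial limit, marker threshold, sex term, depth and leaving out each library. Chosen after seeing the data were a membership rule of 5% of UMIs, membership without the 2-gene condition, Spink8-led members alone, and class shares over libraries with any organ label.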

Additional observations from a re-analysis of the deposited data

Results flagged for a closer look

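The library unassigned 1, whose title and strain entry named different Nalcn genotypes, held 2.15 epididymal epithelial barcodes per 100 passing ones, above the highest wt library at 0.607. It entered no comparison between groups, and it was labelled with an epididymis.

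The sorted blood libraries held 13 UMIs of Spag11b, the sole one of the 7 marker genes detected there. They lay in 10 barcodes, all 10 of which had a Ptprc UMI and 0 of which had a UMI of Epcam, Krt8 or Krt18. None of the 3253 barcodes outside the organ libraries met the rule for epididymal epithelium, and the single library of blood mononuclear cells had no UMI of any of the 7 genes.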

How the results depend on the processing

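The number of genes called between genotypes depended on the test and on the filter for low counts. In null against wt, het against wt and null against het, edgeR called 0, 0 and 0 genes, DESeq2 called 7, 19 and 2, and edgeR without filterByExpr called 218, 155 and 167. The unfiltered fit tested 18272 genes, and why it called more was not tested. It also called 6, 3 and 1 of the 7 marker genes. The UMIs of these genes chose the members, so nothing follows from those calls. Leaving out 1 library gave 0 to 1, 0 to 1 and 0 to 5 calls: Aqp2 (both comparisons) without wt 1, Defb22 without null 2 or without null 3 in het against wt, and Defb22, Dapl1, Sprr2a3, Reg3g and Pate2 without null 2 in null against het. A limit of 20% mitochondrial UMIs gave 3 calls in het against wt (S100a8, S100a9 and Aqp2) and a sex term 1 (Defb22). With the replicate number as a block, 0 genes were called in each comparison, as with RLE scaling, without doublets, at 20 marker UMIs and, chosen after seeing the data, among members with a marker share of 5% or Spink8-led members alone. Gpx5-led members alone could be fitted in null against het, with 0 calls.

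Over 124 alternatives for 11 share results, most of them class shares given as a description, 120 kept the direction and 4 reversed. With class shares adjusted over the classes, none passed the threshold of 0.05, which most of these designs could not reach, so their p-values say nothing of stability. The difference of the epididymis label from the uterus label ran from -0.321 to 1.87 percentage points when 1 library was left out, and was -0.321 without null 2 and -0.18 without wt 4 or wt 5. The difference in the share of Defb20-led members in het against wt ran from -1.89 (without het 1) to 6.70 points. Differences in members per 100 passing barcodes ran from 1.03 to 2.29 points in het against wt and from 1.66 to 3.95 in het and null against wt. Over libraries with at least 20 members and any organ label, null 3 included, the latter was 3.16 (p = 0.0571 by the exact permutation test, smallest possible 0.0286). That choice of libraries used the members being compared and left out wt 4 and wt 5, which held 0, so nothing follows from this p-value. The wt libraries held 23 to 34 members with 213867 to 294226 UMIs in all.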

Other observations

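Spag11b was also found where no epididymis had been pooled. In wt 4, labelled with a uterus and without members, 129 of 1157 barcodes with at least 3 of Chil3, Plet1, Marco and Ear2, genes known from alveolar macrophages, had a Spag11b UMI (11.1%, 95% Clopper-Pearson interval 9.39% to 13.1%, median depth 3291 UMIs). Among its Ptprc-positive barcodes without these 4 genes it was 2 of 5257 (0.0380%, median depth 1434 UMIs). The levels were 41.2 and 0.199 CPM, and the other 6 marker genes had no UMI in the former. In unassigned 2 the counts were 250 of 3259 (7.67%, median depth 2650 UMIs) against 0 of 2834 (median depth 1040 UMIs), at 32.1 CPM and 0. In wt 5 they were 4 of 25 against 0 of 102, and in wt 3, which held an epididymis, 49 of 864 against 5 of 1149. In libraries with more members, Ptprc-positive barcodes without the 4 genes held Spag11b more often. The counts in null 2 were 143 of 732 (19.5%) against 192 of 1254 (15.3%), at 241 against 370 CPM. In null 3 they were 503 of 1124 (44.8%) against 486 of 1603 (30.3%). In het 1 they were 227 of 706 (32.2%) against 233 of 1866 (12.5%), at 1322 against 52.5 CPM. The share was also higher with the macrophage genes in wt 1, wt 2, het 2 and unassigned 1. The 4 genes were chosen after leading genes of such barcodes had been seen, and the intervals cover counting error only.

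Members were compared between libraries by their profiles, with null 3 the sole library labelled female among those with enough members. Over 2282 genes at 50 CPM other than the 7 marker genes, log2(CPM + 10) of members not led by Spink8 was correlated between the 5 libraries with at least 20 such members. Pearson's r was 0.953 between null 3 and unassigned 1, the highest of 10 pairs, 0.927 between null 2 and het 1, and 0.739 between het 1 and unassigned 1, the lowest. The points are genes, which are not independent, and members numbered 51 to 393 a library. Clu, at 15161 CPM in null 2 and 15385 CPM in het 1 in such members, was at 2023 CPM in null 3 and 714 CPM in unassigned 1. Null 3 and unassigned 1 were labelled 611 and 610 days of age, and null 3 shared 0.467% to 0.821% of barcodes with other libraries, inside the range of all pairs. Whether their cells have a common source was not tested.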
